A study of Homo sapiens with 6 samples.

Results

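The interferon-stimulated genes are genes that cells switch on in response to interferons, and 47 of them were examined gene by gene in WM266.4, a human melanoma cell line. The members were taken by symbol from a list of known interferon-stimulated genes. Membership was not defined by a measured value, although the list was drawn up with earlier results of these data known. All 47 were found among the 24526 genes of the count table, and all 47 passed the filter on low counts out of 16297 genes tested.

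RNA was sequenced from 3 cultures transfected with an siRNA against RIPK4 (RIPK4.si) and 3 cultures transfected with a negative control siRNA (neg.si), 48 h after transfection. RIPK4 is a serine/threonine kinase best known for its role in the differentiation of epidermal keratinocytes, and the study asked how its silencing alters the transcriptome of melanoma cells. No interferon or other cytokine is named in the labels of these samples, so the comparison concerns the resting level of the genes in transfected cells. The design is limited to a single cell line, a single RIPK4 siRNA and a single control siRNA. Cultures of untransfected cells were not analysed here. The p-values therefore measure only the spread between these cultures, which the study describes as biological replicates. In bulk RNA, fewer cells expressing a gene and less RNA per cell cannot be told apart.

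Interferons bind receptors on the cell surface and activate the kinases JAK1 and TYK2, which phosphorylate STAT2 and other transcription factors. A complex that holds STAT2 and IRF9 binds the interferon-stimulated response element (ISRE) in promoters, and the gamma-activated site (GAS) is the element of the response to interferon-gamma. The induced genes encode sensors of viral RNA, enzymes that block translation or degrade RNA, proteins that hold back viral entry and release, and regulators that sustain or end the response. Many tumour cell lines express a part of these genes without added interferon.

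The ISRE is the sequence that most directly ties these genes to the pathway, and examples are therefore shown before the values. RefSeq promoters (build GRCh38.p14, 250 bases before to 50 bases after the gene start) were given for 38 of the 47 members, DDX58 being listed there as RIGI. The ISRE core, GAAA followed by any 2 bases and GAAA, was searched on both strands and found in 24 of these 38 promoters and in 3.648% of all 27305 promoters in the same table. The GAS letters, TTC followed by any 3 bases and GAA, were found in 9 of the 38 and in 7.881% of all promoters. Each sequence here reads along the strand of its gene, the capitals mark the ISRE match, and a match on the opposite strand reads as TTTC, any 2 bases and TTTC. GBP1 and GBP3 lie in the same cluster of guanylate-binding protein genes, IFI44L and IFIH1 were higher in every RIPK4.si library than in every neg.si library, and OAS3, IFIT1 and ISG15 are well-known members of the response with a match (OAS1, UBE2L6 and HERC6, of the same sets as OAS3 and ISG15, had none):
GBP1: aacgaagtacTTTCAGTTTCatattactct
GBP3: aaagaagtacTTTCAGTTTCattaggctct
IFI44L: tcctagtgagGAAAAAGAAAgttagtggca
IFIH1: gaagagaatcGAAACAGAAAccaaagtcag
OAS3: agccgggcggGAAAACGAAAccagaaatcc
IFIT1: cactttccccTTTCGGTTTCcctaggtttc
ISG15: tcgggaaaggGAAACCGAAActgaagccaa

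The GBP1 window lies at chr1:89065316-89065345 on the minus strand, with its match 127 bases before the gene start. The GBP3 window lies at chr1:89022845-89022874 on the minus strand, 2 bases after the start. The IFI44L promoter holds the same 30 bases in 2 copies on the plus strand, at chr1:78620274-78620303 and chr1:78620365-78620394. The remaining windows are IFIH1 at chr2:162318686-162318715 (minus), OAS3 at chr12:112938452-112938481 (plus), IFIT1 at chr10:89392510-89392539 (plus) and ISG15 at chr1:1013380-1013409 (plus). A match describes letters in a window and is not a measured binding site. The 24 members with an ISRE match had a median log2 fold change (RIPK4.si over neg.si) of 0.11, from -0.30 to 1.29, and the 14 members without a match had a median of 0.23, from -0.07 to 0.64. The 9 members without a promoter entry, OAS2 (0.93) and OASL (0.90) among them, are in neither median.

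The libraries held between 28464057 and 31688095 counted read pairs, and mitochondrial genes took 9.61% to 13.4% of them. RIPK4 itself was at 85.8, 76.5 and 54.7 CPM (counts scaled to the TMM-adjusted size of each library) in the neg.si libraries and at 19.9, 16.7 and 21.5 CPM in the RIPK4.si libraries, a log2 fold change of -1.90 (SE 0.203, adjusted p = 0.0102 by edgeR's quasi-likelihood test). The melanoma marker genes MITF, TYR, DCT, SOX10 and S100B were abundant in every library, whereas KRT5, KRT14, PTPRC, CD3E and CD79A stood below 1 CPM throughout. Of the other markers of these cell types, the monocyte gene CD14 lay between 0.832 and 2.23 CPM. The keratin gene KRT10 was at 10.8, 10.2 and 10.5 CPM in neg.si and at 13.9, 16.1 and 11.8 CPM in RIPK4.si, with a log2 fold change of 0.41 (adjusted p = 0.438, edgeR's quasi-likelihood test) and no overlap between groups. PMEL, a melanosome protein gene, fell by 1.30 on the log2 scale (adjusted p = 0.0111, edgeR's quasi-likelihood test), and the summed level of the 8 melanoma markers ran from 3573 to 4007 CPM in neg.si and from 2629 to 2739 CPM in RIPK4.si. At an unadjusted p under 0.05, 4 of the 8 were lower (PMEL, DCT at -0.73, TYR at -0.57 and S100B at -0.48 on the log2 scale), and PMEL, DCT and TYR, all genes of pigment synthesis or melanosomes, did not overlap between groups and were called by DESeq2. SOX10 had a log2 fold change of -0.15, MITF, MLANA and S100A1 had values of 0.04 to 0.06, and MLANA stood at only 11.1 to 14.6 CPM. The 4 leukocyte markers summed to 1.57 to 2.62 CPM in neg.si and 1.64 to 1.66 CPM in RIPK4.si, and the part of these shifts in the changes of the interferon-stimulated genes was not tested. On the first principal component, which held 44.9% of the variance, neg.si library 3 (score 56.1, against -27.9 and -0.696) and RIPK4.si library 2 (score -41.5, against 10.6 and 3.34) stood apart from the others of their groups. RIPK4.si library 2 was also the highest RIPK4.si library for each of the OAS genes. Relative to the mean of the 6 libraries, the level of a gene rose with its GC content in neg.si library 1 (Spearman's rho 0.555 across genes) and fell with it in neg.si library 3 (rho -0.547). The other 4 libraries had values between -0.0788 and 0.165. Values without a library are given beside a number of members.

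In the neg.si cells the interferon-stimulated genes spanned more than 3 orders of magnitude. Per kilobase of the canonical transcript, 39 of the 47 members stood at or above the median of the tested genes and 14 stood in the top 10%. IFITM3, which restricts the fusion of incoming viruses in endosomes, was the most abundant with 1024 CPM per kilobase, at the 99.7th percentile. BST2 (tetherin, which holds budding virions at the membrane) followed with 502 CPM per kilobase, LGALS3BP (a secreted glycoprotein) with 358, IFI6 with 271 and IFITM1 with 233. At the low end were IRF9 with 0.529, OASL with 0.861, GBP1 with 1.15, RSAD2 (viperin) with 1.77 and GBP2 with 2.02 CPM per kilobase. GBP1 thus began from the 26.5th percentile of tested genes. The neighbours IFITM1 and IFI27 in this order, at 233 and 218 CPM per kilobase, did not differ beyond their spread between libraries.

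**Figure D1:**
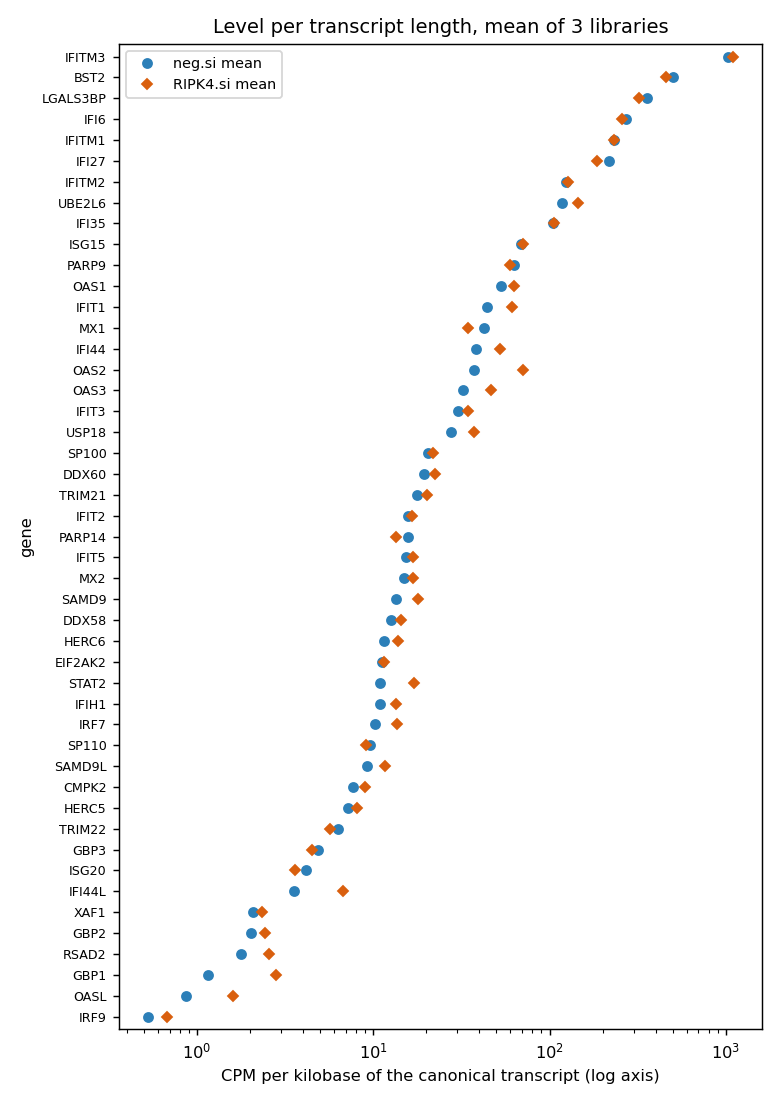
Level of each of the 47 genes in CPM per kilobase of canonical transcript (log axis), as the mean of 3 neg.si libraries (circles) and 3 RIPK4.si libraries (diamonds), ordered by the neg.si mean. IFITM3 is at the top with 1024 in neg.si, IRF9 at the bottom with 0.529, and GBP1 shifts from 1.15 to 2.81.

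After RIPK4 silencing, 1 of the 47 members rose past the threshold and none fell. This gene was GBP1, a large GTPase of the guanylate-binding protein family induced strongly by interferon-gamma. By edgeR's quasi-likelihood test, Benjamini-Hochberg adjusted over all genes, 0.767% of the 16297 genes tested were called in either direction, 0.374% higher and 0.393% lower. At an unadjusted p under 0.05, 5 members were higher and none was lower, namely STAT2, OAS2, OASL, GBP1 and IFI44L. The background at that threshold was 10.8% of genes in either direction and 4.85% higher. In 7 members, these 5 with IFIH1 and SAMD9L, every RIPK4.si library exceeded every neg.si library, and no member showed the opposite order. Among all genes tested the groups did not overlap in 17.6%, with RIPK4.si higher in 8.23% and lower in 9.40%. DESeq2 called 3 members, GBP1, OAS2 and STAT2, all higher. Over all genes it called 437 in either direction, all of them among the 16297 genes tested with edgeR. This is 1.78% of the 24526 genes in the count table, with 0.901% higher. That table includes genes that failed the filter on low counts, so both shares are larger among the 16297 genes.

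The log2 fold change was above 0 in 36 of the 47 members (76.6%), compared with 46.6% of all genes tested. The median over the members was 0.19 and the range ran from -0.30 for MX1 to 1.29 for GBP1, while the median over all genes was -0.02. When each library was left out in turn, the median of the members lay between 0.11 and 0.31, and 31 to 41 members were above 0. Most single changes were smaller than their error, the median SE of the members being 0.25.

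**Figure D2:**
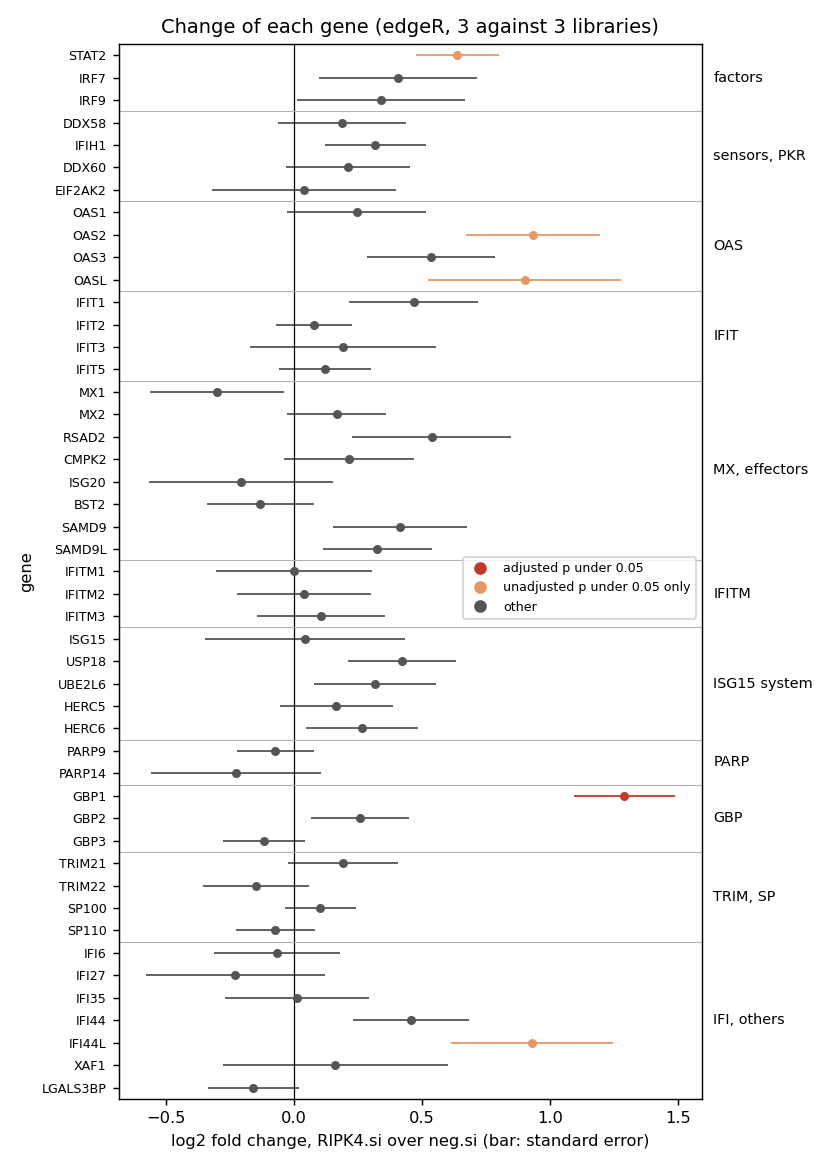
Log2 fold change of RIPK4.si over neg.si for each of the 47 genes, grouped by role, from edgeR with 3 libraries per group; the bars are 1 standard error on each side. GBP1 at 1.29 is the only gene with an adjusted p under 0.05, and the points of STAT2, OAS2, OASL and IFI44L between 0.64 and 0.93 passed only before adjustment.

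Among the guanylate-binding proteins, which assemble on vacuoles and membranes of intracellular pathogens, the 3 members did not share a direction. GBP1 (ENSG00000117228.10, minus strand of chromosome 1, 89052319 to 89065230) stood at 3.52, 3.66 and 2.74 CPM in neg.si and at 7.63, 8.62 and 8.04 CPM in RIPK4.si. Its groups were widely separated, with means of 3.31 ± 0.497 and 8.10 ± 0.495 CPM (SD, n = 3 each). The log2 fold change was 1.29 (SE 0.198, 2.45-fold, adjusted p = 0.0329 by edgeR's quasi-likelihood test), higher in 3 of 3 RIPK4.si libraries. Across the 6 fits that each omit 1 library, GBP1 stayed between 1.18 and 1.39 on the log2 scale, but its adjusted p (edgeR) passed the threshold only without neg.si library 1 (0.0462) or neg.si library 3 (0.0168). In the other 4 of these fits, which hold as many libraries as those 2, it lay between 0.12 and 0.214, and the cause of the difference was not tested. GBP2 had a log2 fold change of 0.26, with an interval of 2 SE from -0.12 to 0.64. GBP3, the most abundant of the family per kilobase, was at 14.8, 13.7 and 15.9 CPM in neg.si and at 14.3, 12.8 and 13.8 CPM in RIPK4.si. Its log2 fold change of -0.12 had an interval from -0.43 to 0.20, and its groups overlapped. Of the windows of 100 bases in the GBP1 transcript, 1.98% were also found in the pseudogene GBP1P1 and none in GBP2 or GBP3.

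The transcription factors of the response were each above 0, and none passed the adjusted threshold. STAT2 (ENSG00000170581.14, minus strand of chromosome 12, 56341597 to 56360167), a subunit of the ISRE-binding complex, was at 40.6, 52.3 and 51.7 CPM in neg.si. It was at 81.7, 66.6 and 76.8 CPM in RIPK4.si, above all of the control libraries. The log2 fold change was 0.64 (SE 0.163), with an adjusted p of 0.137 by edgeR's quasi-likelihood test and 0.0229 by DESeq2. Once the GC trend of the libraries was removed, the adjusted p (edgeR) was 0.0457. IRF7, the main amplifier of interferon gene transcription, was lowest in neg.si library 3 with 11.1 CPM, reached 27.03 CPM in neg.si library 1 and ranged from 19.7 to 31.6 CPM in RIPK4.si, with a log2 fold change of 0.41 (SE 0.308). This value was 0.12 without neg.si library 3 and 0.71 without neg.si library 1. IRF9 had 22, 24 and 34 counts in neg.si and 36, 36 and 25 in RIPK4.si. A read-through gene listed at 2 to 6 counts shares 93.05% of the canonical IRF9 transcript, and the IRF9 level is therefore uncertain.

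The sensors of viral double-stranded RNA had low values in neg.si library 1, and their changes were small beside that spread. IFIH1 (ENSG00000115267.8, chromosome 2, 162267074 to 162318684), which encodes MDA5, was at 27.8, 44.9 and 43.8 CPM in neg.si and at 49.9, 46.0 and 49.3 CPM in RIPK4.si. The groups did not overlap, but the gap between neg.si library 2 and RIPK4.si library 2 was only from 44.9 to 46.0 CPM. Its log2 fold change of 0.32 (SE 0.198) had an adjusted p of 0.669 in edgeR's quasi-likelihood test and fell to 0.14 without neg.si library 1. DDX58, which encodes RIG-I, was at 35.6, 74.0 and 66.5 CPM in neg.si against 62.7, 63.8 and 74.0 CPM in RIPK4.si. Here library 1 alone set neg.si lower, and the log2 fold change moved from 0.19 to -0.05 without it. A read-through gene that was not listed in the table shares 96.61% of the DDX58 transcript. DDX60, a helicase and the most abundant of this set per kilobase, was at 76.1, 142 and 130 CPM in neg.si and at 109, 155 and 140 CPM in RIPK4.si with a log2 fold change of 0.21 (SE 0.241). EIF2AK2 (PKR), the kinase that halts translation on binding double-stranded RNA, varied 2.80-fold within neg.si and had a log2 fold change of 0.04 (SE 0.358).

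The oligoadenylate synthetases, which make the messenger that activates RNase L, had the highest median of the subgroups, a log2 fold change of 0.72 over 4 genes. OAS2 (ENSG00000111335.12, plus strand of chromosome 12, 112978395 to 113011723) was at 131, 245 and 140 CPM in neg.si and at 255, 378 and 353 CPM in RIPK4.si. Every RIPK4.si library was higher, although neg.si library 2, at 245 CPM, came close to RIPK4.si library 1. The log2 fold change of 0.93 (SE 0.261) had an adjusted p of 0.179 by edgeR's quasi-likelihood test and 0.0211 by DESeq2. Without neg.si library 2 it was 1.30, and the other libraries left out in turn gave 0.79 to 1.10. OASL, a catalytically inactive relative that enhances RIG-I signalling, lies on chromosome 12 from 121019111 to 121039242 and was among the least abundant members. It stood at 3.16, 3.90 and 1.39 CPM in neg.si and at 4.23, 7.27 and 4.28 CPM in RIPK4.si, with a log2 fold change of 0.90 (SE 0.376, adjusted p = 0.42 by edgeR's quasi-likelihood test), and 0.58 to 1.22 over the fits that omit 1 library. OAS3 ranged from 170 to 284 CPM in neg.si and from 219 to 364 CPM in RIPK4.si with a log2 fold change of 0.53 (SE 0.25), and its groups overlapped. OAS1, the most abundant of the family per kilobase, was at 77.5, 118 and 63.3 CPM in neg.si against 75.0, 136 and 96.5 CPM in RIPK4.si. With RIPK4.si library 1 within the neg.si range, the log2 fold change of OAS1 was 0.25 (SE 0.273).

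**Figure D3:**
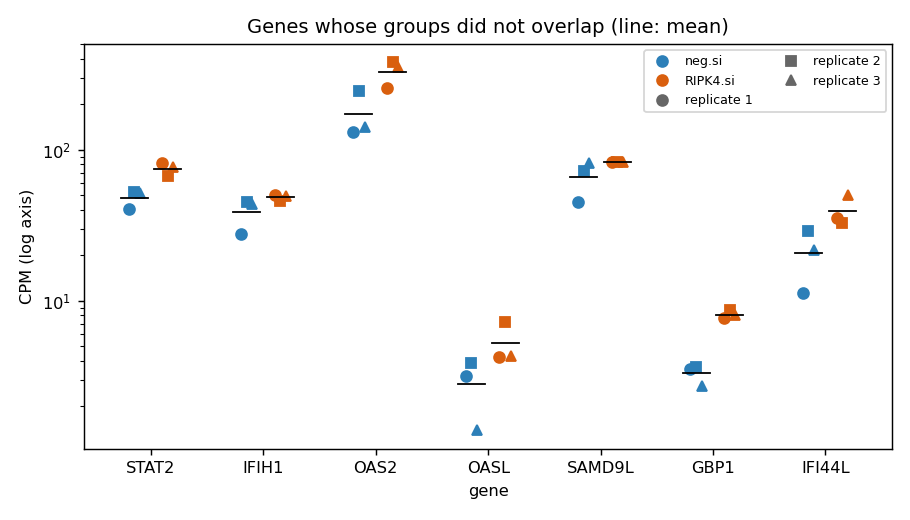
CPM (log axis) of the 7 genes whose groups did not overlap, with neg.si in blue, RIPK4.si in orange, the replicate number as the symbol and the group mean as a line. GBP1 shows the clearest gap, from 3.66 to 7.63 CPM, and IFIH1 and SAMD9L are separated by narrow gaps above a low neg.si library 1.

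The IFIT proteins, some of which bind viral RNA without a host-like cap, did not change past the threshold in any of 4 genes. IFIT1, the most abundant per kilobase, was at 158, 265.6 and 146 CPM in neg.si and at 216, 324 and 248 CPM in RIPK4.si. Its groups overlapped through neg.si library 2, and the log2 fold change was 0.47 with an interval of 2 SE from -0.03 to 0.97. IFIT2 was the steadiest of the family, with a spread of 1.08-fold within neg.si and a log2 fold change of 0.08, interval -0.22 to 0.38. IFIT3 varied 2.15-fold within neg.si and 2.57-fold within RIPK4.si, around a log2 fold change of 0.19 (SE 0.362). IFIT5 had a log2 fold change of 0.12 (SE 0.179).

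The MX proteins and other direct effectors comprised 8 genes, of which 5 were above 0 and 3 below without passing the test. SAMD9L (ENSG00000177409.12, chromosome 7, 93130056 to 93148385), an antiviral and growth-restraining protein, was at 44.9, 72.0 and 81.3 CPM in neg.si. In RIPK4.si it was at 82.6, 82.8 and 83.1 CPM, an almost constant level just above the highest control. A log2 fold change of 0.33 (SE 0.212) had an adjusted p of 0.69 in edgeR's quasi-likelihood test and was 0.13 without neg.si library 1. Its neighbour SAMD9 had a log2 fold change of 0.41 (SE 0.263), between 0.18 and 0.63 with 1 library omitted. RSAD2, which inhibits viral replication through a chain-terminating nucleotide, had one of 0.54 (SE 0.311), between 0.31 and 0.99 with 1 library omitted, and CMPK2, the adjacent nucleotide kinase gene, one of 0.22 (SE 0.256), between 0.0168 and 0.53 with 1 library omitted. MX1, a dynamin-like GTPase that blocks influenza virus, was at 99.8, 170 and 85.5 CPM in neg.si and at 76.0, 114 and 97.9 CPM in RIPK4.si. This was the lowest log2 fold change of all members, -0.30 (SE 0.263), and it was 0.07 without neg.si library 2. MX2 was at 0.17 (SE 0.194) and the exonuclease gene ISG20 at -0.21 (SE 0.359) on the same scale. BST2, the most abundant of the set, was at 640, 497 and 368 CPM in neg.si and at 506, 406 and 464 CPM in RIPK4.si, with a log2 fold change of -0.13 (interval -0.55 to 0.29).

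The IFITM genes lay close to 0, and their control libraries disagreed more than the groups did. IFITM3 was at 795, 698 and 385 CPM in neg.si and at 597, 738 and 686 CPM in RIPK4.si, so that all RIPK4.si libraries fell within the range of neg.si. Log2 fold changes were 0.00 for IFITM1, 0.04 for IFITM2 and 0.11 for IFITM3, with SE from 0.251 to 0.304. IFITM1 and IFITM3 share 42 windows of 100 bases, 7.38% and 8.20% of their transcripts, where reads cannot be assigned to either gene with certainty.

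ISG15, a ubiquitin-like modifier, and the listed genes of this set, USP18, UBE2L6, HERC5 and HERC6, were all above 0 without passing the test. ISG15 ranged from 19.1 to 58.9 CPM within neg.si, a 3.08-fold spread, and its log2 fold change was 0.04 (SE 0.392). USP18, the protease that removes ISG15 and restrains receptor signalling, reached 0.42 (SE 0.212) on the same scale, and 0.23 to 0.60 with 1 library omitted. UBE2L6, the conjugating enzyme and most abundant of the set per kilobase, was at 147, 175 and 106 CPM in neg.si and at 139, 232 and 162 CPM in RIPK4.si with a log2 fold change of 0.32 (SE 0.239) that lay between 0.0849 and 0.51 with 1 library omitted. The ligase gene HERC5 was at 0.17 (SE 0.221) and its relative HERC6 at 0.27 (SE 0.218), the latter between 0.0755 and 0.45 with 1 library omitted.

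PARP9 and PARP14, interferon-induced members of the ADP-ribosyltransferase family, were the only subgroup with every member below 0. PARP9 was at 166, 214 and 195 CPM in neg.si and at 175, 181 and 191 CPM in RIPK4.si, with overlapping groups. Its log2 fold change was -0.07 (interval -0.37 to 0.23). PARP14 varied 2.16-fold within neg.si and 2.17-fold within RIPK4.si and had a log2 fold change of -0.23 (SE 0.333).

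The TRIM and SP100 family genes, which encode an antibody receptor (TRIM21), a restriction factor (TRIM22) and nuclear body proteins (SP100, SP110), had a median log2 fold change of 0.02. SP100 was at 103, 119 and 110 CPM in neg.si and at 122, 113 and 120 CPM in RIPK4.si. These values overlapped, and the log2 fold change of 0.10 had an interval from -0.17 to 0.38. TRIM21 was at 0.19 (SE 0.214), TRIM22 at -0.15 (SE 0.207) and SP110 at -0.07 (SE 0.155).

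Among the 7 remaining members, IFI44L stood out from a group centred on 0.01. IFI44L (ENSG00000137959.16, plus strand of chromosome 1, 78619922 to 78646145), a feedback regulator of the response, was at 11.3, 29.0 and 21.6 CPM in neg.si and at 35.3, 32.5 and 50.1 CPM in RIPK4.si. The lowest RIPK4.si library lay just above the highest neg.si library, and the spread within neg.si was 2.56-fold. The log2 fold change was 0.93 (SE 0.317, adjusted p = 0.291 by edgeR's quasi-likelihood test), and 0.65 without neg.si library 1. The adjacent gene IFI44 was at 0.46 (SE 0.227) with overlapping groups. IFI6, IFI27 and IFI35 had log2 fold changes of -0.07, -0.23 and 0.01. LGALS3BP, the most abundant of these per kilobase, was at 860, 841 and 662 CPM in neg.si and at 746, 588 and 782 CPM in RIPK4.si with a log2 fold change of -0.16 (SE 0.178). XAF1, a proapoptotic protein, had the widest spread of any member within neg.si, 3.39-fold, with a log2 fold change of 0.16 (SE 0.439). The gene PRAL on the opposite strand shares 38.3% of the XAF1 exonic bases, and the counting did not separate strands.

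The library spread of the interferon-stimulated genes was wider at the median than that of all genes tested, and most members shared its pattern. The highest library exceeded the lowest by a median of 1.76-fold within neg.si and 1.47-fold within RIPK4.si, compared with 1.502-fold and 1.33-fold over all genes tested. Library 2 was the highest of the neg.si libraries in 29 of the 47 members (61.7%), against 18.1% of all genes, and the lowest in 1. Library 1 was the lowest in 22 members (46.8%, against 41.0% of all genes) and library 3 in 24 (51.1%, against 42.7%), shares nearer to the background. Within RIPK4.si, library 1 was the lowest in 30 members (63.8%, against 34.8% of all genes) and library 2 the highest in 27 (57.4%, against 40.2%). Summed over the 47 genes, the level ran from 4349 to 6124 CPM in neg.si and from 5216 to 6004 CPM in RIPK4.si, so that the summed level overlapped between the groups.

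**Figure D4:**
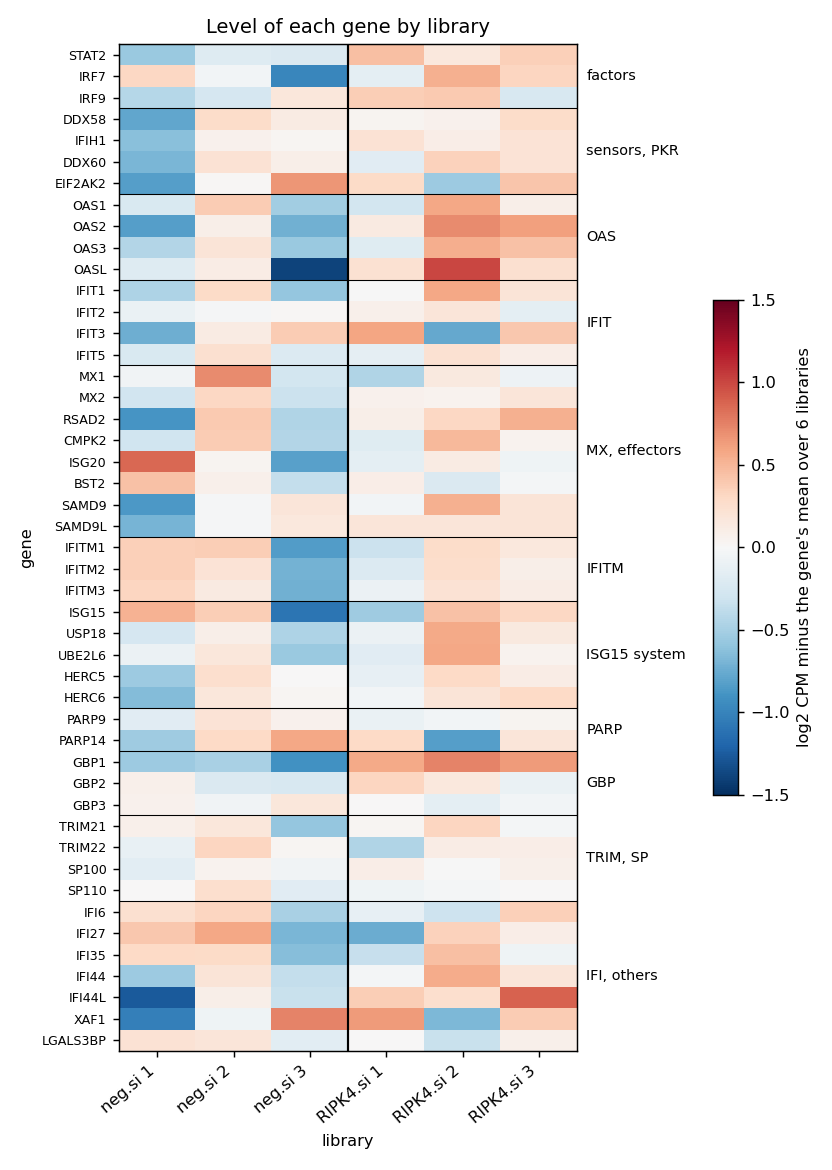
Log2 CPM of each of the 47 genes in each library, minus the mean of that gene over the 6 libraries (colour scale from -1.5 to 1.5), grouped by role. The pale to red column of neg.si library 2 between mostly blue columns of libraries 1 and 3 shows the library that was highest of the controls in 29 members.

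Which control library was lowest differed with the base composition of the genes. Of the 26 members with a GC content under 45%, neg.si library 1 was the lowest control in 18 (69.2%), a share also found over all genes of that composition (69.2%). Of the 21 members with a higher GC content, neg.si library 3 was the lowest in 17 (81.0%), compared with 60.1% of all such genes. Across the 47 members, the log2 difference between neg.si libraries 1 and 3 rose with GC content (Spearman's rho 0.655, Pearson's r 0.712), and over 16239 genes the values were 0.633 and 0.607. These correlations are across genes of the same 2 libraries and are given as a description. The median log2 fold change was 0.19 in members with a GC content under 45% and 0.17 in the others. The part of GC content in the change of single members was not tested beyond removal of the trend, after which edgeR called GBP1 (adjusted p = 0.0205) and STAT2, among 3.27% of all genes. At an unadjusted p under 0.05 in that fit, 10 of the 47 members passed, all with RIPK4.si higher. Among all genes 15.9% passed in either direction, and the share that was higher is not given here.

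**Figure D5:**
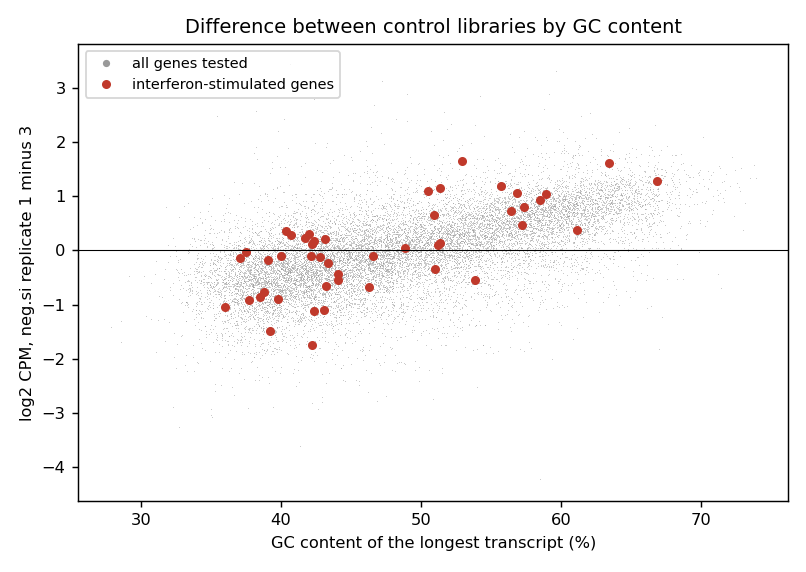
Log2 CPM difference between neg.si libraries 1 and 3 against the GC content (%) of the longest transcript, for all genes tested (grey) and the interferon-stimulated genes (red). The red points follow the grey cloud from negative differences at low GC content to positive differences at high GC content (Spearman's rho 0.655 over 47 members).

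Of 39 further genes of the interferon pathway, 29 were in the table and 27 were tested. None passed edgeR's adjusted threshold, 2 had an unadjusted p under 0.05 and were higher, and in 4 the groups did not overlap, all with RIPK4.si higher. These are 7.41% and 14.8% of the 27 genes, beside 10.8% and 17.6% of all genes tested, and in the higher direction alone 4.85% and 8.23%. The median log2 fold change of the 27 genes was -0.02. None of the 9 interferon ligand genes, among them IFNB1, IFNL1 and IFNG, was in the table, which lists genes with a total of at least 6 counts over the libraries. The receptor genes IFNAR1, IFNAR2, IFNGR1, IFNGR2 and IFNLR1 had log2 fold changes from -0.27 to -0.02. IFNAR1, a chain of the receptor for type I interferons, was at 46.4, 67.9 and 122 CPM in neg.si and at 77.7, 49.4 and 92.0 CPM in RIPK4.si. A read-through gene shares 49.12% of the IFNAR2 transcript, and the IFNAR2 level is uncertain.

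The genes of the pathway with the lowest p-values encode sensors or their regulators. TLR3, the endosomal receptor for double-stranded RNA, was at 2.13, 4.50 and 4.69 CPM in neg.si and at 6.75, 7.72 and 7.46 CPM in RIPK4.si, without overlap. Its log2 fold change of 0.95 (SE 0.288) had an adjusted p of 0.219 by edgeR's quasi-likelihood test and 0.048 by DESeq2. DHX58, which encodes the RIG-I-like receptor LGP2, was at 23.2, 23.8 and 17.4 CPM in neg.si and at 26.6, 32.9 and 31.3 CPM in RIPK4.si, with a log2 fold change of 0.49 (SE 0.179, adjusted p = 0.33 by edgeR's quasi-likelihood test). The groups also did not overlap for TRAF3, a signalling adaptor, at 0.29 (SE 0.141), or for PTPN2, a phosphatase of the JAK kinases, at 0.18 (SE 0.163).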

How the data were processed

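The study's RNA was poly(A)-enriched and sequenced as paired reads on the BGISEQ-500. The authors used Cutadapt for trimming (quality 25, minimum length 15), TopHat for alignment to GRCh38.p13 and HTSeq for unstranded counting of pairs per gene. The HTSeq mode for overlapping genes is not given in the sources used here. The deposited count values are these whole read pairs per gene, not normalized. Columns of the authors' size-factor-scaled values and of their own DESeq2 comparison (fold changes and p-values) were not used.

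Counts were tested with edgeR 4.0.16 (R 4.3.3) after TMM scaling and its default filter on low counts, by a quasi-likelihood test of RIPK4.si against neg.si and Benjamini-Hochberg adjustment over 16297 genes, with a threshold of 0.05. The SE is the log2 fold change divided by the square root of F, and intervals are 2 SE on each side. CPM used TMM-scaled library sizes. Groups were called not overlapping when all 3 libraries of one group exceeded all 3 of the other. Transcript lengths, GC content and coordinates came from GENCODE 44 (24416 of 24526 identifiers found) and promoters from RefSeq. DESeq2 1.42.0, other normalizations and filters, a replicate block, removal of the GC trend (lowess span 0.3) and each library left out in turn were alternatives. The test was checked on simulated counts that lacked the GC trend of the libraries. There edgeR called 56.7% of genes with a true log2 change of 1 and 93.75% with a change of 2. Of the unchanged genes it called 0.0697%. Python 3.11.15 with pandas 2.3.3, numpy 2.4.6 and matplotlib 3.10.9 was used for summaries and plots.

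The members, their subgroups, the pathway and marker lists and the alternatives were chosen with earlier results of these data known. All members are accounted for. Not every gene of the pathway list is reported here by name. Values in every library were given for members with an unadjusted p under 0.05 or groups without overlap and for the most abundant member per kilobase of each subgroup, with some further members added after their values were seen. Counts of 28464057 to 31688095 per library limit precision for genes of few counts, such as IRF9, and counting error is only a part of the spread between cultures.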

Additional observations from a re-analysis of the deposited data

How the results depend on the processing

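The median log2 fold change of the members kept its sign, and 36 members stayed above 0, under every alternative that kept all 6 libraries. With a library left out, 31 to 41 members were above 0. The number of members called was 1, and became 3 with DESeq2, 2 with the GC trend removed, 2 with a replicate block, 2 with both, and 0 to 1 with a library left out. GBP1 stayed called in each fit on all 6 libraries, and OAS2 and STAT2 passed only in some. Over all genes the calls numbered 125, and 437 with DESeq2, 533 with the GC trend removed, 434 with this and the block, and 0 to 295 with a library left out. Counts without 1 library were 0 without RIPK4.si library 1, RIPK4.si library 3 or neg.si library 2, 4 without RIPK4.si library 2, 70 without neg.si library 1 and 295 without neg.si library 3. At an unadjusted p under 0.05, 5 members passed, 11 with the block, 10 with the GC trend removed, 16 with both and 4 to 10 with a library left out. The genes passing it overall were 1768, 1721, 2590, 2647 and 1086 to 2380 in the same order. Of the pathway genes, TLR3 was the 1 called with DESeq2, with the GC trend removed, and with this and the block. RIPK4 had log2 fold changes of -2.06 to -1.74 with a library left out, past the threshold only without neg.si library 1 or neg.si library 3. The cause of these differences between fits was not tested.

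The labels give both groups replicate numbers 1 to 3. Deviations from the group means correlated at -0.242, 0.251 and 0.346 for equal numbers, and at -0.498 to 0.413 for unequal numbers. These values cannot decide whether libraries of equal number belong together. The main test did not take the numbers as pairs, and the replicate block was kept as an alternative. The replicate block called 131 genes, OAS2 (adjusted p = 0.0429, edgeR) and GBP1 (0.0377) among them.

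The sign of 22 members changed when a library was left out, and in no other alternative. Their log2 fold changes ranged over these fits as given here, lowest to highest.
The values were BST2 -0.31 to 0.0991, DDX58 -0.0539 to 0.41, DDX60 -0.000761 to 0.40, EIF2AK2 -0.24 to 0.46, HERC5 -0.00879 to 0.37 and IFI27 -0.52 to 0.0398. Further ranges were IFI35 -0.23 to 0.19, IFI6 -0.28 to 0.0927, IFIT3 -0.0531 to 0.52, IFITM1 -0.30 to 0.20, IFITM2 -0.22 to 0.26 and IFITM3 -0.14 to 0.33. Others were ISG15 -0.31 to 0.33, ISG20 -0.53 to 0.32, MX1 -0.48 to 0.0681, OAS1 -0.00188 to 0.56, PARP14 -0.47 to 0.0607 and PARP9 -0.15 to 0.0312. The last ranges were SP110 -0.16 to 0.0628, TRIM21 -0.000498 to 0.35, TRIM22 -0.23 to 0.0250 and XAF1 -0.16 to 0.69. With the sign kept, the same fits gave STAT2 0.55 to 0.73, IRF9 0.24 to 0.53, OAS3 0.40 to 0.82, IFIT1 0.30 to 0.81, IFIT2 0.0143 to 0.17, IFIT5 0.0422 to 0.30. They also gave MX2 0.0582 to 0.42, GBP2 0.17 to 0.39, GBP3 -0.16 to -0.0571, SP100 0.0715 to 0.17, IFI44 0.29 to 0.72 and LGALS3BP -0.27 to -0.0354.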
